A study of Nothobranchius furzeri with 6 samples.

Results

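The mir-29 row (nfu-mir-29) of a small RNA count table from killifish brain was followed across 6 libraries. It is 1 row of 324, found by its name with the species prefix ignored. No separate row is given for a member or an arm of the miR-29 family, so these cannot be told apart here. The turquoise killifish Nothobranchius furzeri is an annual fish with a very short life, used to study ageing. All 6 libraries came from brain samples of male fish of strain MZM-04/10p at 39 weeks of age, with no treatment named in the labels. They form 1 group, so the data give the level of mir-29 at 1 age, its spread between libraries and its standing among the other rows, and no change with age.

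MicroRNAs are short RNAs that guide silencing proteins to matching sites in messenger RNAs, and they choose those sites mainly through a short stretch near their 5′ end, the seed. The miR-29 family is known in mammals for repressing collagens, elastin and other matrix genes, the de novo DNA methyltransferases, the protease BACE1 and cell-death genes in maturing neurons. In killifish brain it is known as a family that rises with age and acts on the iron regulator Ireb2. The deposited table has no sequences, and none is printed.

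In these brains mir-29 was a moderately abundant miRNA. It had 23686, 29891, 25508, 26163, 25086 and 28002 counts in libraries 1 to 6. As CPM, counts relative to the library total after edgeR's TMM factors had corrected for library composition, this was 1925, 2029, 1467, 2233, 2047 and 2287 CPM. Library 3 was the lowest, and the other 5 lay close together. The mean was 1998 ± 293 CPM (SD, n = 6), a coefficient of variation of 14.7%, and the highest library was 1.56-fold above the lowest. Library 3 lay 30.3% under the mean of the other 5 libraries, which was 2104 ± 151 CPM (SD, n = 5). Those 5 spanned 1.19-fold and had a coefficient of variation of 7.18%.

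**Figure D1:**
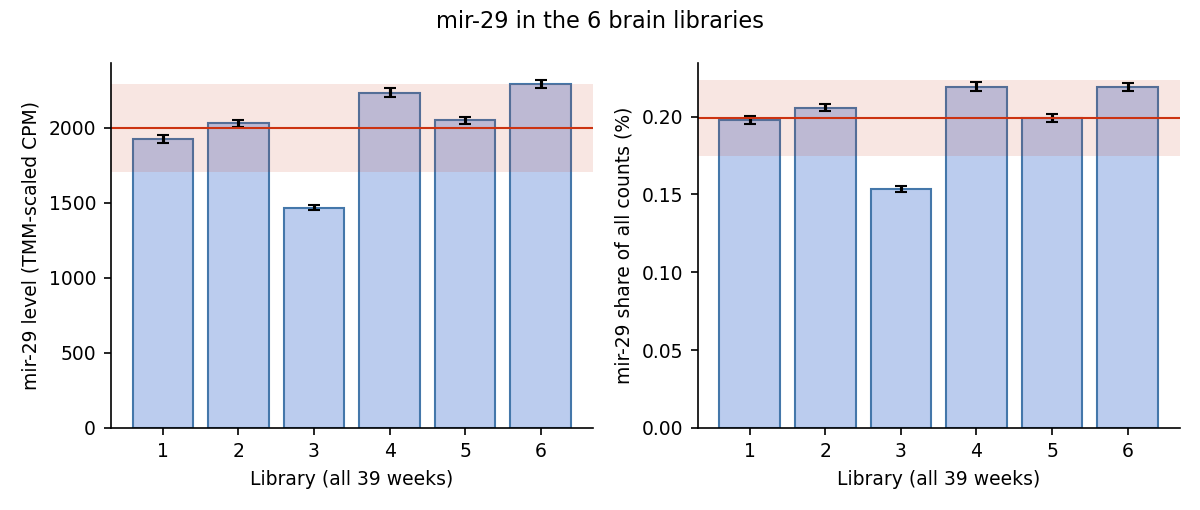
Level of mir-29 in TMM-scaled CPM (left) and its share of all counts in percent (right) in each of the 6 brain libraries. Bars give the value per library, black bars the exact 95% binomial interval, the red line the mean and the red band 1 SD around it (n = 6). Library 3 stands lowest in both, at 1467 CPM and 0.154%.

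As a share of all counts mir-29 held 0.198%, 0.206%, 0.154%, 0.219%, 0.199% and 0.219% in libraries 1 to 6, a mean of 0.199% ± 0.0242 (SD, n = 6). The exact (Clopper-Pearson) 95% interval was 0.152% to 0.156% in library 3 and 0.195% to 0.200% in library 1, the next lowest. These intervals hold counting error alone. They also take each read as independent, which cannot be checked because the reads carry no molecular identifiers. By Dixon's criterion for a lone distant value, library 3 stood apart in the share of mir-29, as did some library in 6.07% of the 214 rows with a mean of at least 10 counts. The same criterion was not met by the TMM-scaled level or by the rank. Counting error of the mir-29 count was 0.578% to 0.650% per library, so nearly all of the spread lay beyond it.

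Library depth ranged from 11924483 to 16597229 counts, with library 3 the deepest. The labels give each library a code but do not state that each is a separate fish, so tests measure the spread between these 6 samples. As bulk brain was sequenced, fewer cells that hold mir-29 and less mir-29 per cell cannot be told apart.

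The first comparison asked whether mir-29 varied more between libraries than the trend that edgeR fits across rows gives at its abundance. It did not pass that test. Its SD on the log2(CPM + 1) scale was 0.23, against a median of 0.27 over the 214 rows with a mean of at least 10 counts, and 126 of those rows varied more. Among the 22 other rows within 2-fold of its mean level, the median log2 SD was 0.21 (range 0.08 to 0.87), and 14 of the 22 varied less than mir-29. Its biological coefficient of variation was 0.233 by edgeR's row-wise estimate, against 0.335 on the fitted trend at its abundance. That row-wise estimate is itself drawn toward the trend, so it is not a value from mir-29 alone. The 4 rows next above and 4 next below it by mean level also lay under the trend, at 0.205 to 0.242. Lying under the trend thus does not set mir-29 apart from them. In edgeR's goodness-of-fit test at that trend, mir-29 had an adjusted p of 0.9999 over the 214 rows, of which 3.74% passed. An adjusted p of this size does not show that the row was constant. In simulated counts, with base spread set at the fitted trend, the test called only 17.5% of rows given an extra log2 SD of 1. Without library 3 the chi-square per degree of freedom was 0.0599, against 0.214 with all 6 libraries.

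**Figure D2:**
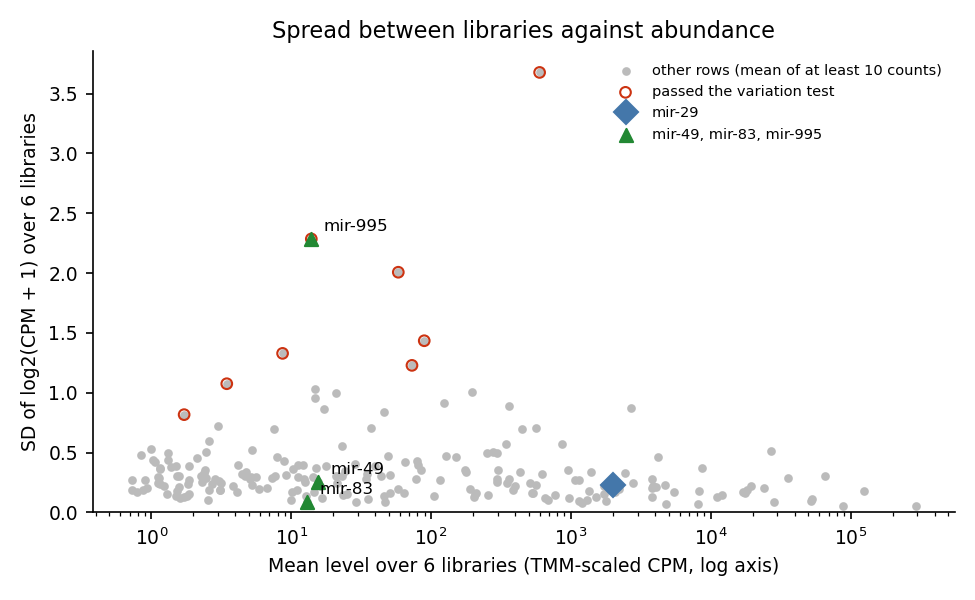
SD of log2(CPM + 1) over the 6 libraries against mean level (CPM, log axis) for the 214 rows with a mean of at least 10 counts. mir-29 (blue diamond, 0.23) lies in the bulk of rows, while mir-995 (green triangle, 2.29) is among the 8 rows, ringed in red, that passed edgeR's variation test.

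The next comparison placed mir-29 in the order of levels. It ranked 36 of 324 rows by mean CPM and 35 of the 235 rows with a family name. Within single libraries its rank was 35, 33, 40, 31, 35 and 30 in libraries 1 to 6, lowest in standing in library 3. Adaptor ligation favours some sequences, and a family row can sum several members, so a ratio between rows is not a ratio of molecules.

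Against the other 213 rows with a mean of at least 10 counts, mir-29 was higher than 174 rows in every library (81.7%), lower than 29 rows in every library (13.6%), and in mixed order with 10. The log2 ratio within libraries, tested by exact permutation of its signs (two-sided), gave p = 0.03125, the smallest that 6 libraries allow, for each of the 203 rows in fixed order. Their adjusted p over all 213 rows was 0.0328, so 95.3% of the rows passed. With so many rows passing, a pass says no more than that the order was the same in all 6 libraries.

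The row nearest above mir-29 in fixed order was mir-15, a family that represses Bcl2 and cyclins in mammals. mir-29 stood at 1998 ± 293 CPM, against 2802 ± 444 CPM for mir-15 (SD, n = 6 each), with a log2 ratio of mir-29 to mir-15 of -0.49 ± 0.13.

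The 8 nearest neighbours by mean level were all in mixed order. With 6 libraries a row in mixed order cannot give a sign-flip p under 0.0625, so none of them could pass. Above it stood mir-182 of the sensory cluster (log2 ratio of mir-29 to the row -0.16 ± 0.35), mir-3596 (-0.11 ± 0.18), the predicted feature pred_586 (-0.06 ± 0.28) and mir-25 of a growth-promoting cluster (-0.02 ± 0.24). Of these, mir-25 was the closest, at 2029 ± 368 CPM, and mir-29 was the higher of the pair in 4 of 6 libraries (exact permutation p = 0.844, adjusted p = 0.844). Below it stood mir-130 (0.16 ± 0.23), mir-228 (0.19 ± 0.27), mir-337 (0.21 ± 0.31) and mir-458 (0.39 ± 0.30), the last at 1513 ± 131 CPM (mean ± SD of 6 libraries throughout). The widest of these steps, to mir-458, had an exact permutation p at that limit, 0.0625, and an adjusted p of 0.0653. There mir-29 was higher in 5 of 6 libraries. The other rows in mixed order were mir-187 (-0.28 ± 0.46) and mir-135 (-0.23 ± 1.05).

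**Figure D3:**
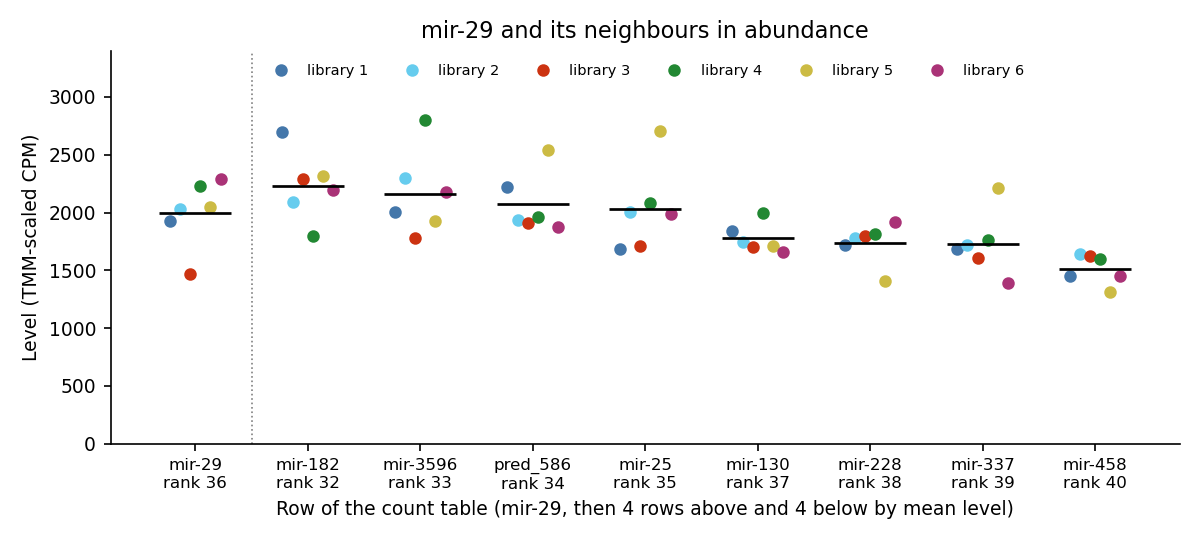
Level in TMM-scaled CPM of mir-29 (left of the dotted line) and of the 4 rows next above and 4 next below it by mean level, with 1 point per library and a black line at the mean of 6. Library 3 (red) is at 1467 CPM for mir-29, below each of its own values in the 8 neighbours.

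Library 3 set part of this order. Without it, mir-29 was higher than mir-130, mir-228 and mir-458 in each of the remaining 5 libraries, and 7 rows stayed in mixed order. The log2 ratio of mir-29 to mir-458 was -0.15 in library 3 and 0.30 to 0.66 in the others. With 5 libraries the exact permutation test cannot give a p under 0.0625.

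The low ratio in library 3 was not limited to 1 partner, but all these ratios share its mir-29 count and are not independent. The ratio of mir-29 to another row was lowest in library 3 for 132 of the 213 rows (62.0%). Libraries 1, 2, 4, 5 and 6 had the lowest ratio for 23, 15, 13, 23 and 7 rows. The other rows themselves were spread more evenly, with 35 of 213 having their own lowest CPM in library 3 and 20 to 41 in each other library.

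The table also has 3 rows that bear names of families outside vertebrates that are known to share the seed of miR-29, namely mir-49 and mir-83, known from nematodes, and mir-995, known from insects. Families named mir-285 and mir-998, which share it too, have no row of their own name. Which reads were counted under these names is not given in the sources used here. All 3 rows were lower than mir-29 in each of 6 libraries, as were 81.7% of the 213 other rows with a mean of at least 10 counts.

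The mir-83 row was steady, between 11.9 CPM in library 4 and 13.8 CPM in library 5. The mir-49 row had 11.9, 15.1, 20.4, 14.5, 13.7 and 17.5 CPM, with library 3 the highest. Relative to mir-29, mir-83 had 0.662% ± 0.147 and mir-49 0.807% ± 0.292 of its count (SD, n = 6), and both shares were highest in library 3, at 0.937% and 1.39%.

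The mir-995 row varied most of the 3. Its count was 1.27%, 1.77% and 1.35% of the mir-29 count in libraries 2, 3 and 4, and 0.0296%, 0.0319% and 0.0214% in libraries 1, 5 and 6. By edgeR's goodness-of-fit test mir-995 varied beyond the trend (adjusted p = 8.4e-15), and mir-49 and mir-83 did not pass (adjusted p = 0.9999 each). Together the 3 rows came to 1.33% to 4.10% of the mir-29 count, and adding them to mir-29 gave 1528 CPM in library 3 and 1950 to 2318 CPM in the others.

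Levels of mir-29 were then set against families linked to its known roles, in lists matched by name. The ageing brain list holds 10 families that are studied in ageing vertebrates, all with a row. mir-29 was lower than 6 of them and higher than 4 of them in every library, and of the 213 other rows with a mean of at least 10 counts 13.6% and 81.7% were in these directions. The median log2 ratio of mir-29 to a list member was -1.27, against 5.86 over those 213 rows.

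The higher members were mir-181, known from brain and lymphocytes (log2 ratio of mir-29 to the row -7.20 ± 0.26), mir-26, a suppressor of growth (-5.96 ± 0.13), the differentiation family let-7 (-5.47 ± 0.24), the growth-linked mir-21 (-2.61 ± 0.32), mir-101, which represses the histone methyltransferase Ezh2 in mammals (-2.06 ± 0.20), and mir-15. The lower members were mir-17 of a growth-promoting cluster (1.02 ± 0.23), mir-23 (1.54 ± 0.26), mir-7 (1.95 ± 0.67) and the p53-responsive mir-34 (2.95 ± 0.29). All are means ± SD of 6 libraries. mir-29 thus stood between mir-15 and mir-17 in this list.

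The list for fibrosis and matrix holds families that act, in mammals, for or against scar formation, as miR-29 does by repressing collagens. mir-29 was lower than mir-21, which promotes fibrosis, and mir-30, which opposes it, at a log2 ratio to mir-30 of -2.48 ± 0.34. It was higher than mir-133 (0.90 ± 0.45), mir-199 (1.89 ± 0.30) and mir-214 (7.48 ± 0.53). So 2 of 5 members were higher and 3 of 5 lower than mir-29 in every library, with a median log2 ratio of 0.90. Over the 213 rows, 13.6% were higher and 81.7% lower, with a median of 5.86.

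Of the families that target DNA methyltransferases in mammals, mir-143 was above mir-29 (log2 ratio of mir-29 to the row -1.25 ± 0.38) and mir-148 below it (1.37 ± 0.26), while mir-152 has no row of its own name. Of the families that target BACE1, mir-103 and mir-124 were both above it (-0.93 ± 0.32 and -1.03 ± 0.41), while mir-107 and mir-195 have no row of their own name. Each of these orders held in 6 of 6 libraries, as the order with mir-29 did for 95.3% of the 213 rows.

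Among lists of cell type markers, mir-29 was lower than the sum of the neuronal list in every library, with a log2 ratio to 9 summed rows of -5.82 ± 0.13. This was the steadiest of the 14 list ratios by SD. Against single neuronal rows the SD ran from 0.14 for mir-132 to 0.49 for mir-138. In every library mir-29 was lower than 7 of the 9 neuronal rows and higher than mir-218 (0.81 ± 0.27) and mir-137 (1.70 ± 0.27). Of the 213 rows, 13.6% were higher and 81.7% lower than mir-29 in every library. mir-29 was also lower than mir-9 (-4.72 ± 0.17), than the oligodendrocyte list of mir-219 and mir-338 (-3.23 ± 0.16) and than the vessel wall list of mir-126, mir-143 and mir-145 (-2.14 ± 0.36). In single rows, mir-29 was higher than mir-219 (0.79 ± 0.28) and lower than mir-338 (-3.14 ± 0.15).

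mir-29 was higher in every library than the summed rows of muscle (0.86 ± 0.44), endocrine tissue (1.07 ± 1.05), epithelium (1.56 ± 0.43), white blood cells with microglia (2.01 ± 0.26), red blood cells (2.17 ± 0.70) and liver (7.63 ± 0.22). In all, it lay below 8 and above 6 of the 14 lists. Sums grow with the number of rows in a list and follow its most abundant rows. The rows mir-7, mir-21, mir-124, mir-133 and mir-143 each stand in more than 1 list.

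**Figure D4:**
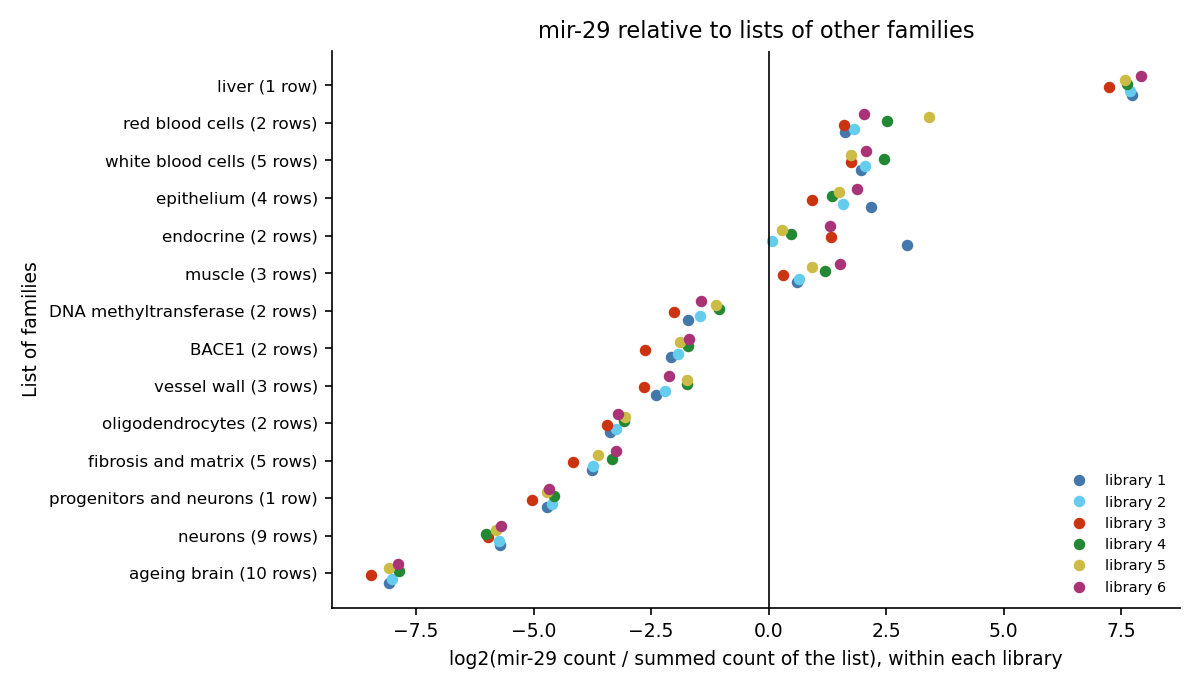
Within-library log2 ratio of the mir-29 count to the summed count of each list of families, 1 point per library. Points left of 0 mean that mir-29 was lower than the list. Library 3 (red) has the lowest ratio for 12 of the 14 lists.

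The ratio was lowest in library 3 for 12 of the 14 lists, the exceptions being the neuronal list (lowest in library 4, at -6.01) and the endocrine list (lowest in library 2, at 0.08). These ratios also share the mir-29 count of library 3 and are not independent. Against the ageing brain list it was -8.46 in library 3 and -8.09 to -7.87 in the others. Against mir-9 it was -5.04 in library 3 and -4.72 to -4.56 in the others.

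In library 3 the summed marker lists of epithelium, red blood cells, muscle and vessel wall lay within the range of the other libraries. The neuronal list lay below that range. The epithelial list, with mir-200 at 0 in every library, took 0.0807% of counts in library 3 and 0.0440% to 0.0867% in the others. Its members went different ways: mir-205 was at 467 CPM in library 3 and 65.3 to 276 CPM in the others, mir-203 at 74.0 CPM and 18.9 to 44.1 CPM, and mir-8, the most abundant, at 229 CPM and 248 to 732 CPM. The red blood cell list took 0.0507%, against 0.0186% to 0.0643%, and the muscle list 0.124%, against 0.0763% to 0.131%. The vessel wall list took 0.965%, against 0.669% to 1.04%, and the neuronal list 9.57%, the lowest of the 6, against 10.5% to 14.2%. Neuronal rows also went different ways in library 3. The most abundant, mir-128, was at its lowest of the 6 libraries there (49364 CPM), as was mir-132 (16274 CPM). By contrast, mir-124 (4885 CPM) and mir-129 (4527 CPM) were at their highest, and the rest lay within the range of the other libraries. The part of these lists in the low mir-29 of library 3 was not tested.

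The last comparison asked which rows followed the pattern of mir-29 over the 6 libraries. Pearson's r of log2(CPM + 1) was computed for the other 213 rows and tested over all 720 pairings of libraries. After Benjamini-Hochberg adjustment no row passed (0%), for r or for Spearman's rho. Before adjustment, 16 rows (7.51%) passed by r and 13 by rho at an exact permutation p of 0.05. The points share their libraries and depth, and CPM of different rows are tied together by a common total. Across all rows r was positive for 104 of 213, with a median of -0.02.

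Among the 145 rows with a mean of at least 100 counts, the row most like mir-29 was mir-723, known from fish. mir-723 had 145, 181, 121, 208, 185 and 229 CPM in libraries 1 to 6, lowest in library 3 and highest in library 6, in the same order of libraries as mir-29. Its r with mir-29 was 0.95 (exact permutation p = 0.00139, the smallest that 720 pairings can give, adjusted p = 0.296). Spearman's rho was 1 (adjusted p = 0.296, exact permutation p = 0.00278). Without libraries 3 and 6, the farthest from the median of mir-29, r of mir-723 was 0.94.

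Next came mir-15, with r = 0.86 (adjusted p = 0.571, exact permutation p = 0.0653). Its rho was 0.54 (adjusted p = 0.945, exact permutation p = 0.297). mir-15 had 2800, 3345, 2021, 2966, 2678 and 3003 CPM, with library 3 the lowest, and r was 0.15 without libraries 3 and 6. With TMM factors recomputed it was 0.20 without library 3 alone and 0.86 without library 6 alone, so that relation rested on library 3. The growth suppressor mir-26 showed an r of 0.84 (adjusted p = 0.503, exact permutation p = 0.0167) and a rho of 0.94 (adjusted p = 0.546, exact permutation p = 0.0167). Without libraries 3 and 6, r of mir-26 was 0.73.

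The activity-regulated neuronal family mir-132 had 16875, 17608, 16274, 21745, 21010 and 23450 CPM, again in the order of mir-29. Its r was 0.81 (adjusted p = 0.503, exact permutation p = 0.0153) and its rho was 1 (adjusted p = 0.296, exact permutation p = 0.00278). Without libraries 3 and 6, r of mir-132 was 0.84. The fifth was lin-4, the family to which miR-125 belongs, with an r of 0.80 (adjusted p = 0.571, exact permutation p = 0.0611) and a rho of 0.60 (adjusted p = 0.888, exact permutation p = 0.242). For lin-4, r was -0.63 without libraries 3 and 6 and 0.10 without library 3 alone, with the TMM factors of all 6 libraries. With TMM factors recomputed it was 0.40 without library 3 alone and 0.78 without library 6 alone.

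**Figure D5:**
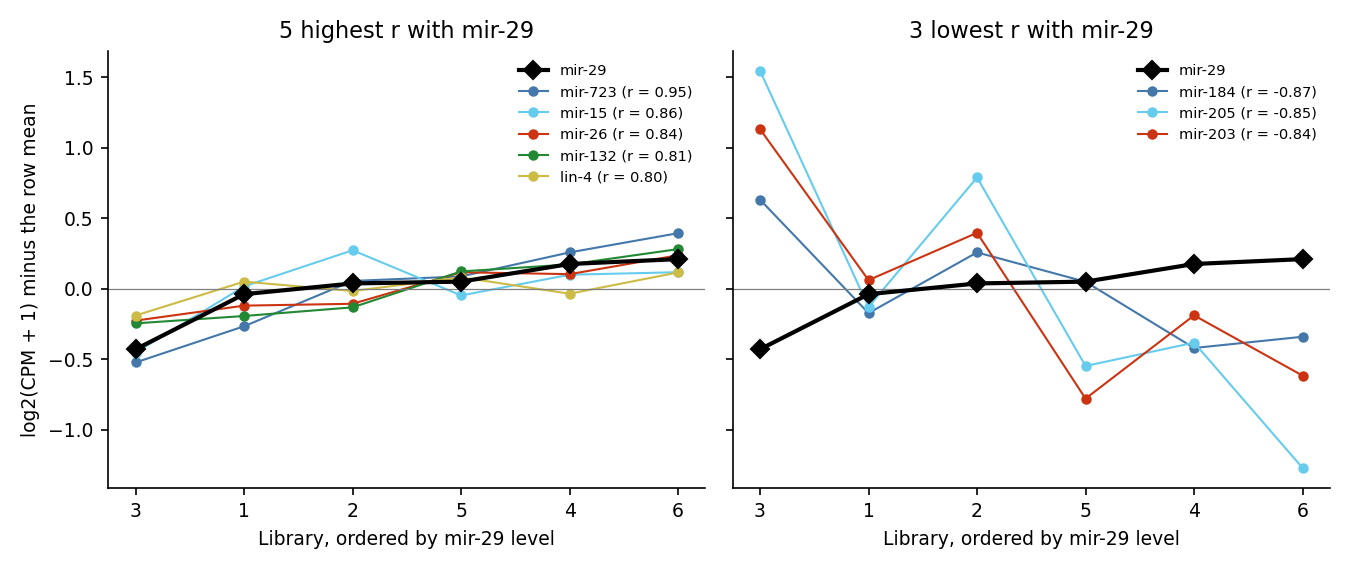
Deviation of log2(CPM + 1) from the row's own mean in each library, with libraries ordered by their mir-29 level (mir-29 as black diamonds). Among rows with a mean of at least 100 counts, the 5 with the highest r (left, mir-723 to lin-4) are lowest in library 3. The 3 of them with the lowest r (right, mir-184, mir-205 and mir-203) are highest there.

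Of the 145 rows with a mean of at least 100 counts, mir-184, mir-205 and mir-203 ran most against mir-29. These 3 had lower mean levels than mir-29, at 81.1, 197 and 37.0 CPM in that order, and are known from epithelia and the eye. mir-205, of skin and other stratified epithelia, had 145, 276, 467, 122, 109 and 65.3 CPM in libraries 1 to 6, with library 3 the highest. Its r with mir-29 was -0.85 (adjusted p = 0.503, exact permutation p = 0.0236) and its rho was -0.89 (adjusted p = 0.546, exact permutation p = 0.0333). mir-184, of lens and cornea, showed an r of -0.87 (adjusted p = 0.503, exact permutation p = 0.0236) and a rho of -0.77 (adjusted p = 0.592, exact permutation p = 0.103). mir-203, of skin, showed an r of -0.84 (adjusted p = 0.552, exact permutation p = 0.0361) and a rho of -0.77 (adjusted p = 0.592, exact permutation p = 0.103). Without libraries 3 and 6, r was -0.28 for mir-205, -0.50 for mir-184 and -0.24 for mir-203. Without library 3 alone it was -0.63, -0.62 and -0.46 in the same order of rows, with the TMM factors of all 6 libraries. With TMM factors recomputed these were -0.77, -0.69 and -0.57. The epithelial family mir-8 ran the other way, with an r of 0.79 (adjusted p = 0.503, exact permutation p = 0.0208) and a rho of 0.83 (adjusted p = 0.592, exact permutation p = 0.0583).

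Over all 213 rows, r with mir-29 was above 0 for 104 (median -0.02). By list, it was above 0 for 7 of 9 neuronal rows (median 0.56), from 0.81 for mir-132 to -0.79 for mir-129. It was below 0 for 5 of 5 rows of the fibrosis and matrix list (median -0.57), from -0.14 for mir-199 to -0.79 for mir-214. Within the ageing brain list 5 of 10 rows had a positive r (median 0.09), from 0.86 for mir-15 to -0.55 for mir-181. Other lists of more than 1 row with a single sign were seed-sharing names (0 of 3 above 0), muscle (0 of 3), BACE1 (0 of 2) and endocrine (2 of 2). None of these rows passed after adjustment over the 213. Some of these signs rested on library 3. Without it, with the TMM factors of all 6 libraries, r was below 0 for mir-138 (-0.51), mir-218 (-0.01) and mir-375 (-0.06). It was then above 0 for mir-49 (0.82), mir-995 (0.18) and mir-23 (0.21). The rows of the fibrosis and matrix, muscle and BACE1 lists all stayed below 0.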

How the data were processed

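The authors deposited raw counts for 324 rows in 6 libraries, 1 column each. The kit was TruSeq small RNA, per the labels' protocols. SAMtools 1.3.1-9, BWA 0.7.12-r1039, Trimmomatic 0.36 and bcl2fastq 1.8.4 are listed, per the submitters' processing notes. Not given in the sources used here are their roles, the genome build, the miRNA annotation and the handling of reads with several matches. Such reads could shift counts between mir-29 and rows with like sequence.

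Libraries were numbered in accession order. TMM factors (0.958 to 1.05) came from edgeR 4.0.16 over all rows. Log2 levels had 1 CPM added, and ratios 0.5 counts. Rows with a mean of at least 10 counts (214) were tested at an adjusted p of 0.05 (Benjamini-Hochberg). Variation was tested by goodness of fit to an intercept-only negative binomial model at the trended dispersion. Ratios were tested by sign-flips and likeness by all pairings, both with NumPy 2.4.6. SciPy 1.17.1 gave the ranks for rho and the exact binomial intervals. The procedures were tested on simulated data. For the variation test their base spread was set at the trended dispersion. It called 0% of rows without extra spread, 17.5% with an extra log2 SD of 1 and 81% with 2. All 15 library pairs differed beyond counting noise (lowest chi-square 387 per degree of freedom), so none was treated as a library deposited again. This does not show that they came from separate fish. A count of 3, the detection floor, was 0.173 to 0.256 CPM. DESeq2 1.42.0 served as an alternative.

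Rows named were mir-29 and its 4 neighbours on each side. Also named were the 5 highest and 3 lowest in r among rows with a mean of at least 100 counts. So were the rows that bear names of families known to share the miR-29 seed, and members of the lists. All these rows and the lists were chosen with earlier results of these data known.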

Additional observations from a re-analysis of the deposited data

Results flagged for a closer look

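Dixon's criterion was applied to 20 levels, ranks and ratios, and it set 1 library apart in 3 of them, each time library 3. Chance flags about 1 in 20, and the 3 share the mir-29 count of library 3, so they are not independent. Among the shares of all 214 tested rows, 6.07% had a library apart. The share of mir-29 was 0.154% in library 3, against 0.198% to 0.219% in the others. After TMM scaling the gap did not pass, with 1467 CPM for library 3 and 1925 to 2287 CPM for the others. The log2 ratio of mir-29 to the summed ageing brain list was -8.46 in library 3, against -8.09 to -7.87. That list took a mean of 53.0% of all counts, mostly mir-181, mir-26 and let-7, so this ratio largely repeats the share of mir-29. The log2 ratio of mir-29 to the progenitor and neuron marker mir-9 was -5.04 in library 3, against -4.72 to -4.56.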

How the results depend on the processing

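With mir-181 out of the total, the level of mir-29 was 2824 CPM and its share 0.281%, as the smaller total requires. Other scalings moved both by less than 1 SD. So did adding the 3 rows that bear names of families known to share the miR-29 seed. That alternative was chosen after seeing the data. Leaving out each library gave levels of 1958 to 2086 CPM, shares of 0.195% to 0.208% and ranks of 34 to 36. Against Poisson counting error alone, without biological dispersion, mir-29 varied strongly (chi-square per degree of freedom 702), and it did not pass under any other dispersion, filter or scaling tried in edgeR, nor as a DESeq2 dispersion outlier. Without a filter, 284 rows were lower than mir-29 in every library and 313 passed the sign-flip test. With a mean of at least 100 counts these were 106 and 135, since fewer rows were tested. With any library left out, 0 rows could pass that test, as 5 libraries cannot give a p under 0.0625. With a library left out, the log2 ratio of mir-29 to mir-25 ran from -0.0623 to 0.0583, changing sign without library 3 or 5, and that to pred_586 from -0.129 to 0.0041, changing sign without library 3. No contrast between conditions, paired or not, was possible because there is 1 group. Depth was not limiting for mir-29, while mir-995 had only 6 to 8 counts in libraries 1, 5 and 6.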
